A study of Homo sapiens with 8 samples.

Results

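Cells treated with etoposide alone were compared with untreated cells by FAIRE-seq, as the Etop libraries against the Control libraries. These are 4 of the 8 libraries of the series (2 Control and 2 Etop), taken by their treatment labels. All libraries come from AIRE-Tet cells, a Tet-On Advanced line of HEK293 human embryonic kidney cells in which doxycycline switches on human AIRE. Control cells had neither drug, and Etop cells had 2 µM etoposide for 24 h without doxycycline, so AIRE was uninduced in both groups. The other 4 libraries, used here for the estimate of spread and for values beside these, are 2 of cells given 1.5 µM doxycycline (Dox) and 2 of cells in which AIRE was induced for 24 h before the 24 h with etoposide (DoxEtop). Per the labels' protocols, libraries were made from formaldehyde-fixed cells, and the replicates are independent biological ones. All groups share 1 cell line in culture, and neither AIRE nor the response to etoposide was measured in these files.

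In FAIRE-seq, fixed chromatin is extracted with phenol and chloroform and the DNA left in water is sequenced, which enriches DNA poorly held by nucleosomes, such as active promoters and enhancers. Topoisomerase II relieves torsion in DNA by cutting both strands, passing another duplex through the cut and sealing it again. Etoposide traps the enzyme after the cut, so that breaks are not sealed and the DNA damage response is triggered. Topoisomerase II acts often at transcribed genes and at the anchors of chromatin loops, and gene-dense chromosomes carry many such places. The comparison asks whether the drug by itself goes with a change in open chromatin in these cells.

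Raw counts were given by the authors for 256141 windows of 150 bp on hg19, most of them overlapping others, and were also summed over 35741 merged regions (windows at most 100 bp apart), over 1762 segments of 1 Mb with at least 20 windows, and over chromosomes. The Control libraries held 8275911 and 6787276 counts over all windows and the Etop libraries 7134106 and 4568818, and the median window held 24 to 29 and 16 to 25 counts. Levels below are in CPM, each library's counts scaled to a total of 1000000 over all windows, that is, shares of what the table holds, so a change of the same size everywhere would not be seen. Within a window, more cells with an open site and a more open site per cell cannot be told apart. Counts were not set against input DNA. Whether a shift in share over a segment or chromosome came from openness or from DNA amount was not tested. Across windows, log2 levels of the 2 Etop libraries correlated at 0.350 and those of the 2 Control libraries at 0.486, while the 4 pairs of 1 Control and 1 Etop library had 0.353 to 0.461. Control replicate 1 correlated more with Dox replicate 1 (0.506) than with Control replicate 2. Windows share libraries and positions, so these correlations are descriptions only.

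At single windows, no difference between Etop and Control passed the test. The quasi-likelihood F test of edgeR, fitted on all 8 libraries and adjusted by Benjamini-Hochberg, called 0 of 256141 windows (0%), with a smallest adjusted p of 0.353. At an unadjusted p under 0.05 there were 6499 windows higher (2.54%) and 7711 lower (3.01%). DESeq2 and limma-voom called 0 as well. In 40442 windows (15.8%) both Etop libraries lay above both Control libraries, and in 43786 (17.1%) both lay below. The median difference was -0.0077 on the log2 scale, and its median standard error was 0.51 per window. The count rested on single libraries, being 12 without Control replicate 2 and 313 (283 of them lower) without Etop replicate 2, with 1 library left in the group each time.

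The 5 windows of smallest p that were lower in Etop lay on 5 chromosomes, held 0 to 7 counts in each Etop library, and were not called. The window on chromosome 2 from 66803201 to 66803350 had 29 and 30 counts in Control and 1 in each Etop library, 3.96 ± 0.648 against 0.18 ± 0.056 CPM (SD, n = 2 each). Its log2 difference was -4.36 (SE 0.81, edgeR adjusted p = 0.353), the smallest p of the table. On chromosome X the window from 133119301 to 133119450 had 27 and 28 counts in Control and 1 in each Etop library (log2 difference -4.26, SE 0.85, edgeR adjusted p = 0.662). The groups did not overlap in either window, and in both the Dox and DoxEtop libraries had 8 to 32 counts. Chromosome 10 from 77156401 to 77156550 had 26 and 32 counts in Control, against 4 and 0 in Etop. On chromosome 17, the window from 80057401 to 80057550 had 38 and 29 counts in Control, against 3 and 3 in Etop. Chromosome 19 from 34175151 to 34175300 had 45 and 35 counts in Control, against 5 and 7 in Etop. Each of these 3 had an edgeR adjusted p of 0.866. The table held 0 windows at 0 counts in both Etop libraries and 0 windows at 0 counts in both Control libraries.

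The windows of smallest p in the other direction had low Control levels and 13 to 66 counts in each Etop library. The window on chromosome 7 from 27208151 to 27208300, inside an open region of 500 bp, had 22 and 13 counts in Control and 66 and 35 in Etop, or 2.29 ± 0.525 against 8.46 ± 1.12 CPM (SD, n = 2 each). Its log2 difference was 1.87 (SE 0.44, edgeR adjusted p = 0.866). On chromosome 1 the window from 210619801 to 210619950 had 16 and 11 counts in Control and 64 and 27 in Etop, a log2 difference of 2.06 (SE 0.48, edgeR adjusted p = 0.866). The Etop libraries lay above all 6 other libraries in both of these windows. The window on chromosome 20 from 37063501 to 37063650, which forms a region by itself, had 6 and 6 counts against 31 and 25. Another, on chromosome 17 from 79212651 to 79212800, had 8 and 3 counts against 37 and 16. There the Dox libraries, at 3.29 and 4.68 CPM, overlapped the Etop libraries, at 5.19 and 3.5 CPM. The window on chromosome 13 from 47128301 to 47128450 had 9 and 5 counts against 57 and 13. In this last window the Etop libraries were far apart, at 7.99 and 2.85 CPM, and Etop replicate 2 lay below both Dox libraries. The edgeR adjusted p was 0.866 in these 3 windows too. Without Etop replicate 2, 6 of the 10 windows named here passed (those on chromosomes 1, 2, 13, 19 and X and that at 79212651 on chromosome 17), with edgeR adjusted p from 0.0177 to 0.0435.

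**Figure D1:**
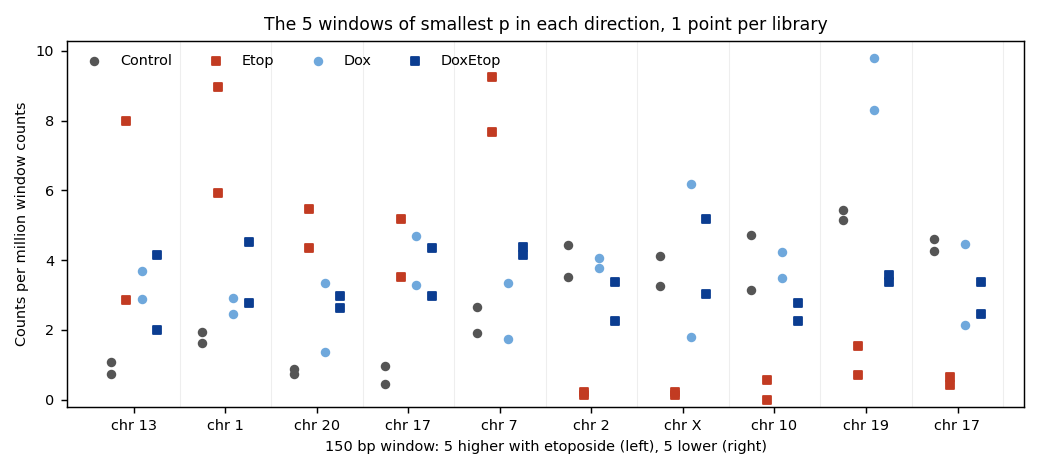
Level of the 10 windows of smallest p (5 higher with etoposide on the left, 5 lower on the right), in CPM, with 1 point per library and colors for the 4 groups. The 5 windows on the right sit at 0 to 1.53 in the Etop libraries and at 3.14 to 5.44 in the Control libraries, and none of the 10 passed the test.

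No merged region passed either. The edgeR quasi-likelihood test called 0 of 35741 regions (0%), with 822 higher (2.3%) and 835 lower (2.34%) at an unadjusted p under 0.05 and a smallest adjusted p of 0.999. DESeq2 called 1 region, lower with etoposide, on chromosome 8 from 145704401 to 145704750. That region had 22.2 and 25.3 CPM in Control and 6.59 and 4.82 CPM in Etop, a log2 difference of -2.04 (SE 0.48) by edgeR (adjusted p = 0.999) and -2.03 by DESeq2 (adjusted p = 0.0471). The Etop libraries lay below all 6 other libraries there. A region of 550 bp on chromosome X from 119378551 to 119379100 had 37.6 and 45.8 CPM in Control and 17.4 and 11.8 CPM in Etop. A region of 800 bp on chromosome 19 from 46916401 to 46917200 had 102 and 98.7 CPM against 59.57 and 52.97. Both were lower in Etop by more than the spread within either group, and neither passed (edgeR adjusted p = 0.999). On chromosome 7 the region from 100434851 to 100435350 had 49.2 and 68.4 CPM against 20.9 and 29.8, and on chromosome 6 that from 124125001 to 124125400 had 23.7 and 32.1 CPM against 11.8 and 3.72, again without overlap and with an edgeR adjusted p of 0.999. Regions called after leaving out 1 library numbered 7 for Etop replicate 2 (all lower), 3 for Control replicate 2 (all higher) and 1 for Etop replicate 1 (higher).

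Among the regions of smallest p that were higher with etoposide, 2 lay on chromosome 17. The region of 1000 bp from 45055851 to 45056850 had 27.7 and 24.5 CPM in Control and 62.8 and 54.9 CPM in Etop, a log2 difference of 1.18 (SE 0.29, edgeR adjusted p = 0.999). Its levels in Dox, 61.5 and 44.5 CPM, overlapped those in Etop. The region of 350 bp from 42074951 to 42075300 was by far the strongest of the 10 regions named here, with 121 and 300.4 CPM in Control and 327 and 519 CPM in Etop. The gap between replicates was nearly as large as that between the group means (log2 difference 1.01, SE 0.25, edgeR adjusted p = 0.999), and the value was 1.81 without Control replicate 2 (adjusted p = 0.0027) and 0.492 without Control replicate 1 (adjusted p = 0.999). On chromosome 7 the region from 27207951 to 27208450, which holds the window at 27208151, had 20.1 and 15.8 CPM against 52.8 and 47.3 (log2 difference 1.48, SE 0.37). DoxEtop libraries had 37.5 and 27.2 CPM in this region and Dox libraries 14.3 and 22.9, so both etoposide groups lay above their untreated counterparts. On chromosomes 20 and 19, the regions from 37063501 to 37063650 and from 6389451 to 6389600 were single windows with at most 12 counts in a Control library.

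Sums over 1 Mb segments have smaller errors, with a median standard error of 0.119 on the log2 scale, and still 0 of 1762 segments were called by edgeR (0%, smallest adjusted p = 0.442). Unadjusted p under 0.05 was found for 38 segments higher (2.16%) and 85 lower (4.82%), and DESeq2 and limma-voom called 0. The difference was above 0 in 682 segments (38.7%). Both Etop libraries lay above both Control libraries in 218 segments (12.4%) and below both in 371 (21.1%). More segments were thus lower than higher, and the 2 kinds differed in how many windows they held. Leaving out 1 library gave 4 called segments without Control replicate 1 (all lower), 6 without Control replicate 2 (all higher) and 1 without Etop replicate 1.

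The segments of smallest p that were higher in Etop were mostly crowded with open windows. On chromosome 22 the segment from 38000001 to 39000000, with 695 windows in 102 regions, had 2597 and 2540 CPM in Control and 2994 and 2966 CPM in Etop. The gap was many times the spread within either group (log2 difference 0.21, SE 0.057, edgeR adjusted p = 0.442), and 190 of its 695 windows were higher without overlap against 70 lower, where 15.8% and 17.1% of all windows were. The segment was picked by its p from the sum of these windows, so their excess is not separate evidence. On chromosome 17 the segment from 42000001 to 43000000, with 609 windows, included the region at 42074951. That region of 5 windows had means of 211 CPM in Control and 423 CPM in Etop. The whole segment had 2407 and 2621 CPM against 2840 and 3012, means of 2514 and 2926 (log2 difference 0.22, SE 0.06, edgeR adjusted p = 0.442). It passed only without Control replicate 2 (0.281, adjusted p = 0.00976). On chromosome 19 the segment from 47000001 to 48000000, with 879 windows, had 3641 and 3760 CPM against 4318 and 4063. The segment on chromosome 7 from 27000001 to 28000000, which holds the region at 27207951, had 1247 and 1287 CPM against 1479 and 1409. The DoxEtop libraries were above the Dox libraries in all 4 of these segments. On chromosome 6 the segment from 84000001 to 85000000, with 101 windows, had 306 and 297 CPM against 377 and 372, but there the DoxEtop libraries (326 and 359 CPM) lay below the Dox libraries (405 and 368 CPM).

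The segments of smallest p that were lower in Etop were sparse, with 23 to 92 windows each. On chromosome 3 the segment from 119000001 to 120000000 had 283 and 252 CPM in Control and 203 and 171 CPM in Etop, the smallest p of all segments (log2 difference -0.52, SE 0.13, edgeR adjusted p = 0.442). The Dox libraries, without etoposide, were also below both Control libraries there, at 205 and 232 CPM, and the DoxEtop libraries had 204 and 189 CPM. On chromosome 10 the segment from 45000001 to 46000000 had 410 and 443 CPM against 308 and 345 (log2 difference -0.39, SE 0.11). The DoxEtop libraries, at 290 and 298 CPM, were again below the Dox libraries, at 352 and 400 CPM. On chromosome 18 the segment from 32000001 to 33000000 had 418 and 371 CPM against 288 and 320. The Dox libraries, at 347 and 371 CPM, and the DoxEtop libraries, at 324 and 370 CPM, overlapped there. The other 2 lay on chromosome 7, from 21000001 to 22000000 and from 17000001 to 18000000, with log2 differences of -0.39 and -0.64. In both of these the direction between DoxEtop and Dox was the opposite, at 0.12 and 0.09.

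**Figure D2:**
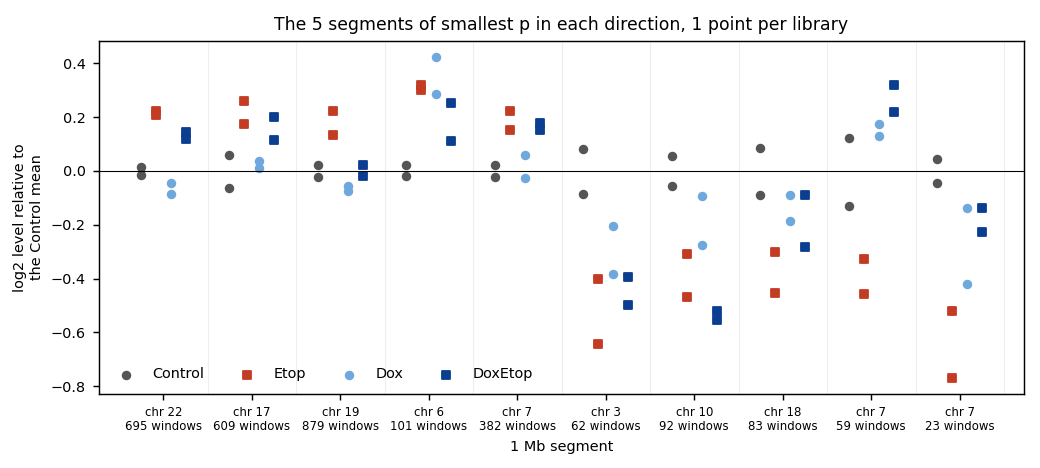
Log2 level relative to the mean of the Control libraries for the 10 segments of 1 Mb with the smallest p (5 higher with etoposide on the left, 5 lower on the right), with 1 point per library, labelled by chromosome and number of windows. Etop and Control points are apart in all 10, the higher ones hold 101 to 879 windows and the lower ones 23 to 92, and none of the 10 passed the test.

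Segments were therefore also grouped by the number of windows they hold, a grouping chosen after the segment values had been seen and given as a description. The number of windows per Mb follows from the authors' selection of windows. How that was made is not given in the sources used here, and it may rest on these same 8 libraries. The number is high where open sites crowd together, as they do in gene-dense stretches. Segments of 401 to 800 windows (91 segments on 17 chromosomes, 48685 windows) held 18.9% and 18.9% of the counts in the Control libraries and 19.9% and 19.5% in the Etop libraries, means of 18.9 ± 0.0316 and 19.7 ± 0.275 (SD, n = 2 each). The difference was above 0 in 79 of these 91 segments (86.8%, against 38.7% of all segments), with a median of 0.068 on the log2 scale. In 45 of the 91 both Etop libraries lay above both Control libraries, and in 5 below, against 12.4% and 21.1% of all segments. No exact test of 2 libraries against 2 can go below p = 0.3333, so none was made for these shares.

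Sparse segments went the other way. Segments of 51 to 100 windows held 14.18% and 13.53% of the counts in Control and 13.12% and 13.49% in Etop, without overlap by a narrow margin, and the difference was above 0 in 150 of 506. In segments of 21 to 50 windows the shares were 7.06% and 6.60% against 6.47% and 6.65%, with 189 of 559 above 0, and the groups overlapped. Segments of 101 to 200 windows had a difference above 0 in 121 of 335, and those of 201 to 400 windows in 116 of 215. Segments above 0 were thus the minority in sparse stretches and the large majority in segments of 401 to 800 windows. Segments of over 800 windows did not follow a clear course, with 15.4% and 16.9% in Control and 16.6% and 16.5% in Etop, although 21 of 29 were above 0. Shares add up to the whole, so a higher share in one class has to be met by a lower share in others.

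The cells with AIRE induced, which share no library with this comparison, had shares of 18.9% and 18.8% in Dox and 19.8% and 19.4% in DoxEtop for the segments of 401 to 800 windows. Both etoposide groups were thus above both groups without the drug in this class. Of its 91 segments, 76 were above 0 in DoxEtop against Dox, and 73 were above 0 in both comparisons, against 368 of all 1762 segments (20.9%). Segments of over 800 windows went the other way, with 15.355% and 15.225% in Dox and 14.895% and 15.198% in DoxEtop. DoxEtop was lower there without overlap, by a narrow margin, although 15 of the 29 segments were above 0. Without chromosomes 17 and 22, segments of 401 to 800 windows were still higher, by 0.0457 on the log2 scale in Etop against Control and by 0.0482 in DoxEtop against Dox. By group means, Etop was above Control for regions of every width class in these segments, from 0.0361 for regions of 501 to 1000 bp to 0.132 for those of up to 300 bp, but the libraries overlapped in the classes of up to 300 bp and 301 to 500 bp. In DoxEtop against Dox the value for regions of up to 300 bp was -0.00885, and the other width classes had 0.0267 to 0.0899.

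**Figure D3:**
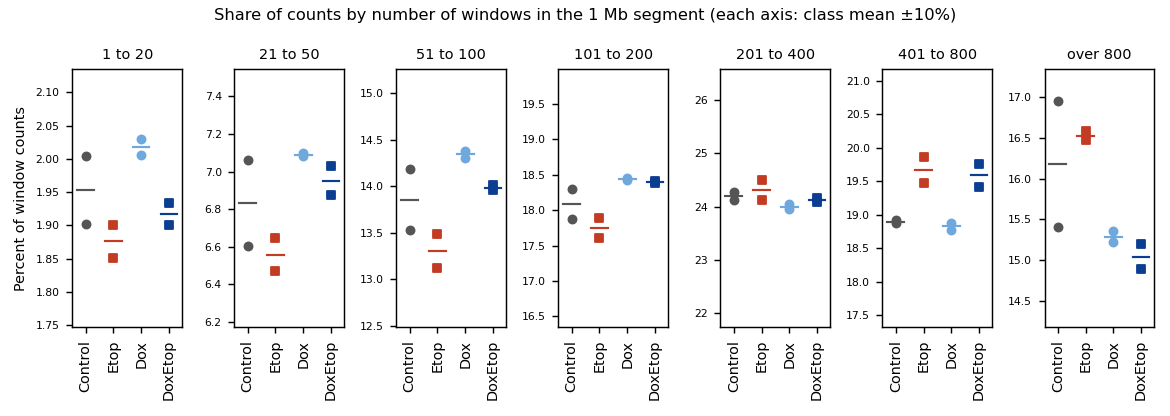
Percent of all window counts that fall in 1 Mb segments of a given number of windows (panel titles), with 1 point per library, a bar at each group mean, and axes that span 10% to either side of the class mean. In the panel for 401 to 800 windows the 4 libraries with etoposide sit at 19.4% to 19.9% and the 4 without at 18.8% to 18.9%.

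Chromosome 17 was the only chromosome called higher in Etop, and 0 were called lower. It held 7.80% and 7.76% of the counts in the Control libraries and 8.21% and 8.11% in the Etop libraries, means of 7.78 ± 0.028 and 8.16 ± 0.0647 (SD, n = 2 each). The groups did not overlap, and the rise was 0.0683 on the log2 scale (SE 0.0138), with an edgeR adjusted p of 0.033 over 24 chromosomes (1 called, 4.17%). The call was narrow. The adjusted p was 0.086 with TMM factors, 0.549 with DESeq2 size factors, 0.391 with the Control and Etop libraries alone, 0.0647 without the segment from 42000001 to 43000000, and 0.265 and 0.107 without Etop replicates 1 and 2. The value itself stayed between 0.0602 and 0.0812 in all fits made. Without either Dox library the adjusted p was 0.0668 or 0.0664, and without either DoxEtop library 0.116. It was 0.00755 and 0.0141 without Control replicates 1 and 2.

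The rise on chromosome 17 was spread over many segments. Of its 71 segments, 49 had a difference above 0, and in 32 both Etop libraries lay above both Control libraries and in 7 below. Over all segments these shares were 38.7%, 12.4% and 21.1%. Its segments of 401 to 800 windows were together higher by 0.092 on the log2 scale and those of over 800 windows by 0.101. Those of 51 to 100 windows stood at -0.00605, and those of 21 to 50 windows were together lower by 0.102. The latter were mixed. Without overlap, those from 31000001 and 32000001 were higher and those from 12000001, 13000001 and 81000001 lower. Among the windows of chromosome 17, 18.7% were higher without overlap and 14.0% lower, against 15.8% and 17.1% of all windows. The Dox libraries had 7.93% and 7.80% of their counts on chromosome 17 and the DoxEtop libraries 8.20% and 8.18%, a log2 difference of 0.0586 (SE 0.0138, edgeR adjusted p = 0.0775).

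Chromosome 22, which like 17 and 19 is dense in genes, had the largest difference of the chromosomes other than Y and did not pass. It held 3.25% and 3.19% of the counts in Control and 3.403% and 3.412% in Etop, a log2 difference of 0.0814 (SE 0.0209, edgeR adjusted p = 0.0632). With chromosome Y left out, which has 20 windows, the adjusted p was 0.0335 for both 17 and 22. Of the 32 segments of chromosome 22, 28 were above 0, and in 13 both Etop libraries lay above both Control libraries, with 0 below, where all segments had 38.7%, 12.4% and 21.1%. By group means its sparse and crowded segments were both higher, from 0.0457 for 21 to 50 windows to 0.0981 for 51 to 100 windows. The libraries overlapped in its segments of 1 to 20 and 21 to 50 windows. Chromosome 22 stood at 3.31% and 3.33% in Dox and 3.52% and 3.45% in DoxEtop, a log2 difference of 0.0722 (edgeR adjusted p = 0.0775). Chromosome 22 was called without Control replicate 1 (adjusted p = 0.00755) and without Control replicate 2 (adjusted p = 0.0205).

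**Figure D4:**
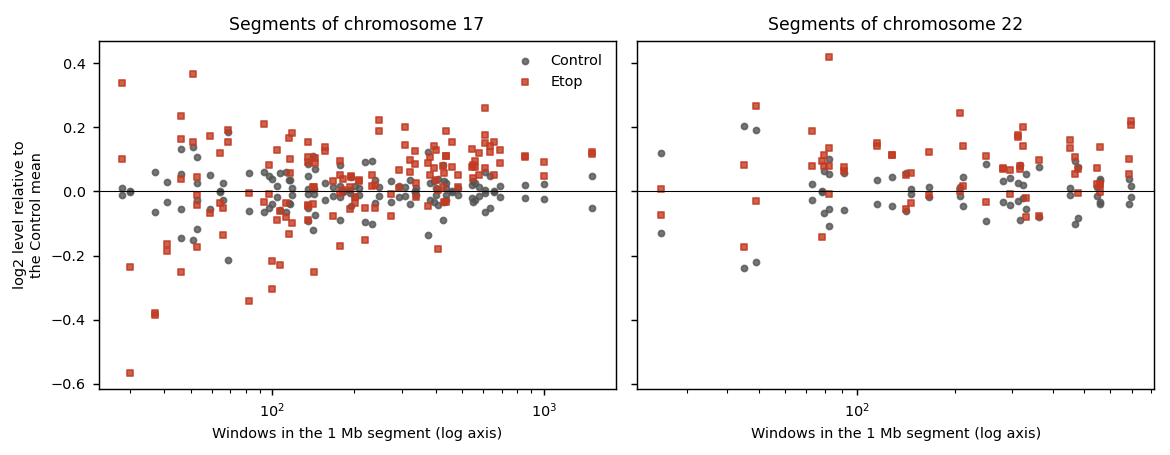
Log2 level of each 1 Mb segment relative to the mean of the Control libraries, against the number of windows in the segment on a log axis, for chromosome 17 (left, 71 segments) and chromosome 22 (right, 32 segments), with 1 point per Control or Etop library. Etop points lie mostly above 0 in crowded segments of both chromosomes, and on chromosome 17 several sparse segments lie below.

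No other chromosome passed (edgeR adjusted p from 0.471 to 0.997). With 17 and 22, 3 chromosomes were higher without overlap (12.5%), and 4 were lower (16.7%). Chromosome 21 was the only other one on which both Etop libraries, at 1.30% and 1.35%, lay above both Control libraries, at 1.28% and 1.27% (log2 difference 0.0554, SE 0.0366). Chromosomes 2, 5, 7 and X had both Etop libraries below both Control libraries, with log2 differences of -0.0417, -0.0302, -0.0361 and -0.0369 and edgeR adjusted p of 0.471 to 0.601. Chromosome 2 had the largest share of these, with 5.70% and 5.55% in Control and 5.47% and 5.46% in Etop. Chromosome 19, which held the most counts, had 15.9% and 17.5% in Control and 16.9% and 16.8% in Etop, so the Etop libraries lay between the Control libraries (log2 difference 0.0148, SE 0.0378). Its sign depended on 1 library, at -0.052 without Control replicate 1 (adjusted p = 0.0522) and 0.0849 without Control replicate 2 (adjusted p = 0.0073). Chromosome 16 had 4.34% and 4.03% in Control and 4.34% and 4.32% in Etop, a log2 difference of 0.0489. The Control libraries differed more from each other than the Etop libraries did, with a median distance of 0.061 against 0.0163 on the log2 scale over 23 chromosomes. Without Control replicate 2, 12 chromosomes were called (3 higher, 9 lower), and without Control replicate 1 there were 3 (16, 17 and 22, all higher).

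**Figure D5:**
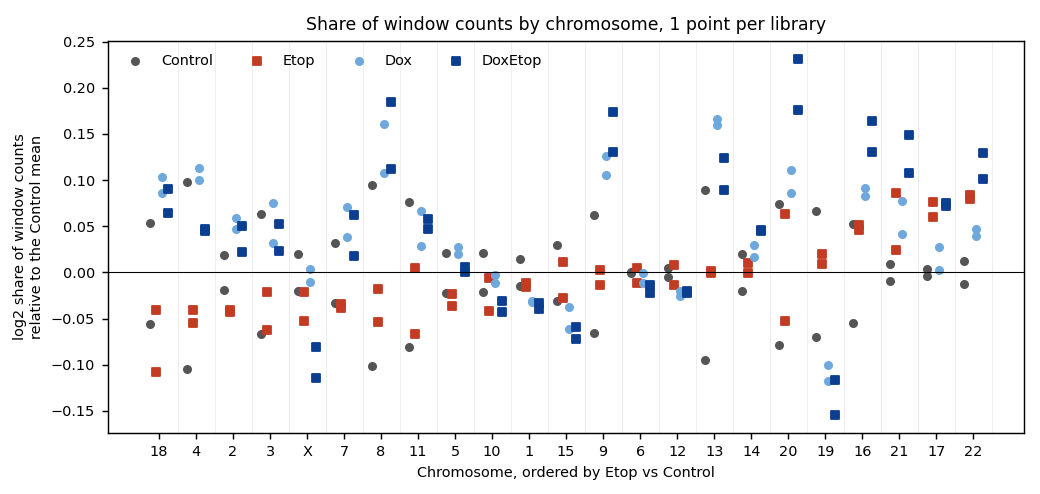
Share of window counts on each chromosome as log2 relative to the mean of the Control libraries, with chromosomes ordered by the difference between Etop and Control, 1 point per library and colors for the 4 groups. Etop points lie above both Control points on 21, 17 and 22, and the Control points are far apart on many chromosomes, such as 4, 8 and 13.

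Region width did not part Etop from Control. For the narrowest regions (up to 300 bp), the median window had a log2 level, centred on the 8 libraries, of -0.0059 and 0.179 in Control and 0.148 and 0.171 in Etop, a difference of 0.0731. The Control libraries alone were further apart than that. In regions of over 2000 bp the values were -0.0161 and -0.0549 in Control and -0.0825 and 0.075 in Etop. The differences in the other classes were 0.0037 for 301 to 500 bp, 0.009 for 501 to 1000 bp and 0.0382 for 1001 to 2000 bp, and the groups overlapped in all 5 classes. By window level the groups overlapped as well. The 7685 windows of the top 3% by mean level held 7.61% and 6.81% of the counts in Control and 6.98% and 7.05% in Etop. Among these strongest windows 11.5% were higher without overlap and 20.0% lower, against 15.8% and 17.1% of all windows.

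Etoposide in cells with AIRE induced (DoxEtop against Dox) gave 1 called segment. It lay on chromosome 20, from 26000001 to 27000000, and its 33 windows all belonged to 1 merged region. They summed to 981 and 1135 CPM in Dox and 1623 and 1935 CPM in DoxEtop. The log2 difference was 0.75 (SE 0.13, edgeR adjusted p = 0.00493, 1 of 1762 or 0.0568%). Tested as merged regions, no difference between DoxEtop and Dox passed (smallest edgeR adjusted p = 0.371). Leaving out a Dox library gave 0 called segments and leaving out a Control library 3, and DESeq2 called 0. The 2 Etop libraries were far apart in this segment, at 824 and 1467 CPM against 919 and 831 CPM in Control (log2 difference 0.38, SE 0.13, edgeR adjusted p = 0.681). The test of whether the etoposide difference itself differed between cells without and with AIRE induction called 0 windows, 0 segments and 0 chromosomes (0% each, edgeR), with 10557 (4.12%), 60 (3.41%) and 0 at an unadjusted p under 0.05. The segment test was not stable to single libraries, with 9 called without Control replicate 2 and 1 without Etop replicate 2, and the window test called 4 without Control replicate 2. Differences of the 2 comparisons correlated at Pearson r = 0.0759 over windows, 0.152 over segments and 0.677 over 23 chromosomes (Spearman 0.0744, 0.191 and 0.635). These correlations are across windows, segments or chromosomes of the same 8 libraries, and are given as a description. The likeness grew with the scale of the sum, and at single windows 52.4% had the same sign.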

How the data were processed

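FAIRE-seq of AIRE-Tet cells was analysed from the deposited table of raw read counts in 150 bp windows spaced 50 bp apart, in 4 groups of 2 libraries (Control, Etop, Dox, DoxEtop). Per the submitters' processing notes, Trim Galore, Bowtie2, Bowtie and hg19 were used. How windows were selected and counted is not given in the sources used here, and every window held at least 111 counts over the 8 libraries. Input samples were not analysed here. Counts were scaled to column totals and summed over merged regions, 1 Mb segments and chromosomes. The main test was edgeR 4.0.16 (R 4.3.3), the two-sided quasi-likelihood F test, with 1 mean per group over 8 libraries and Benjamini-Hochberg adjustment at 0.05. It was tested on simulated data for windows, regions and segments, but not for chromosomes. Each SE given is back-calculated, as the absolute log2 difference divided by the square root of F. DESeq2 1.42.0, limma 3.58.1 (voom), TMM factors, a replicate block, other merging and segment sizes and leaving out each library were alternatives. The features named are all called ones and the 5 of smallest p in each direction, at most 1 window per region, and all chromosomes. Overlapping windows share reads and are not independent. Gene lists (p53 targets, topoisomerases, break repair and immediate early genes) were not tested, since no hg19 annotation was used here. The comparison and lists were chosen with earlier results of these data known. Groups by windows per segment and by level were chosen after seeing the data.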

Additional observations from a re-analysis of the deposited data

How the results depend on the processing

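Replicate numbers showed no pairing of Control with Etop libraries. Deviations of same-numbered libraries correlated at -0.0758 over windows, -0.0826 over segments and -0.146 over 23 chromosomes. The Dox and DoxEtop libraries were not compared in this way, and whether samples were prepared in pairs was not tested. With the replicate number as a block, 5 windows and 1 region were called higher, all 6 being chromosome 17 from 42074951 to 42075300 (region value 1.09, edgeR adjusted p = 0.00745), the DoxEtop against Dox segments called numbered 2, and no segment call arose in Etop against Control. Under the block chromosome 17 kept its call (0.0683, edgeR adjusted p = 0.0227), and chromosome 13 turned to 0.000764.

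DESeq2 called 1 region, and 0 segments in DoxEtop against Dox. Called chromosomes numbered 0 with TMM factors, with DESeq2 size factors, with Control and Etop libraries only and without the segment of smallest p on chromosome 17, and 2 without chromosome Y. The last 2 settings were chosen after seeing the data. Under the first 4, chromosome 17 stood at 0.0775, 0.0812, 0.0683 and 0.063 and did not pass; the cause was not tested. Leaving out 1 library gave 0 to 313 windows, 0 to 7 regions, 0 to 6 segments and 0 to 12 chromosomes, 0 to 4 windows and 0 to 9 segments for the difference between the comparisons, and 0 to 3 segments for DoxEtop against Dox, with chromosome 17 at 0.0602 to 0.0764.

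Differences turned sign on some chromosomes other than 17. Without Control replicate 2, those on 3, 4, 8, 9, 11 and 19 kept their main sign and were larger in size. The same held for 16 without Control replicate 1. On each of these the sign turned without the other Control replicate. With TMM factors the turned differences were 0.00685 on chromosome 12, 0.00978 on 13, 0.00116 on 15, 0.00562 on 6 and 0.00457 on 9, and with DESeq2 size factors 0.0106, 0.0147, 0.00446, 0.0092 and 0.00903. With non-overlapping windows they were 0.00463 on 12 and 0.0024 on 13. Leaving out 1 library gave -0.028 to 0.000973 on chromosome 1, -0.107 to 0.0503 on 11, -0.0132 to 0.00829 on 12, -0.089 to 0.0948 on 13, -0.0155 to 0.0254 on 14, -0.038 to 0.023 on 15, -0.00343 to 0.103 on 16, -0.052 to 0.0849 on 19, -0.0683 to 0.0848 on 20, -0.104 to 0.0251 on 3, -0.145 to 0.0573 on 4, -0.0119 to 0.00519 on 6, -0.131 to 0.0659 on 8 and -0.0674 to 0.0601 on 9. The higher share of segments of 401 to 800 windows held when any 1 Control or Etop library was left out (0.582 to 0.97 percentage points), and that of segments over 800 windows turned (-0.424 to 1.11). With 2 libraries a group and a median of 94 counts per window over Control and Etop, small differences at single windows were not detectable. Large ones did not pass either, such as the log2 difference of -4.36 on chromosome 2 (edgeR adjusted p = 0.353).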
